A study of Homo sapiens with 12 samples.

Results

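The box H/ACA and Cajal body small RNAs were taken as all gene symbols in the count files that begin with SNORA or SCARNA followed by a digit. There were 135 of these among 55765 symbols, 112 SNORA and 23 SCARNA. The counts come from SH-SY5Y, a human neuroblastoma cell line that the labels describe as bone marrow derived from SK-N-SH, and all 12 libraries are of cells given all-trans retinoic acid (ATRA) for 7 days, which turns them into neuron-like cells. In the co-treatment experiment, 3 libraries of cells that received H2O2 together with ATRA for all 7 days were compared with 3 libraries of cells that received ATRA alone. In the pre-treatment experiment, 3 libraries of cells given H2O2 in the 72 hours before ATRA were compared with 3 libraries of cells without H2O2. The H2O2 dose is 10 mM in the description deposited with the data and 10 μM in the study's methods. All samples are of 1 cell line, and the sources used here do not say whether replicates of a group were grown apart, so p-values measure the spread between these libraries, which may be technical.

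Box H/ACA RNAs fold into hairpins that pair with a target RNA and place a uridine in the active site of the enzyme dyskerin (DKC1), which turns it into pseudouridine. Most SNORA species sit in the nucleolus and guide the modification of ribosomal RNA, and a few act in the cutting of its precursor. SCARNA species gather in Cajal bodies and guide the modification of the spliceosomal small nuclear RNAs, and among them are H/ACA RNAs, box C/D RNAs, which guide ribose methylation, and chimeras with a domain of each kind. In human cells nearly all are cut out of introns of host genes, and the proteins bound to them protect their ends. They carry no poly(A) tail in their mature form, so they are counted in libraries made from total RNA depleted of ribosomal RNA, as these were.

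Sequences are shown for SNORA53, SNORA74B, SCARNA5 and SCARNA6, and for SNORA73B, which had the highest level per length. The first 4 are among the members with large fold changes in the pre-treatment experiment when its control replicate 3 was left out. Over all libraries of that experiment none of them was called. They were read from the reference genome, build GRCh37 (hg19), 5′ to 3′ on the strand of the RNA. All 5 lie on the + strand of a host gene and are intronic in the annotation used, except that 10.4% of SNORA53 overlaps an exon: SNORA53 at chr12:98993413-98993661 in SLC25A3, SNORA74B at chr5:172447731-172447931 in ATP6V0E1, SNORA73B at chr1:28835071-28835274 in RCC1 and SNHG3, and SCARNA5 at chr2:234184373-234184648 and SCARNA6 at chr2:234197322-234197586, both in ATG16L1. Capitals mark the ACA nearest the 3′ end, which is the position of box ACA, in the 3 SNORA sequences.
SNORA53: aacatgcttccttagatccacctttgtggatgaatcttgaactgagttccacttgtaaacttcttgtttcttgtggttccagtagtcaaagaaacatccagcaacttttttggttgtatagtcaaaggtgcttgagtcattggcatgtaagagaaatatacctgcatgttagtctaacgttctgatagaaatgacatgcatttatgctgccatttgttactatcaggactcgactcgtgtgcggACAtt
SNORA74B: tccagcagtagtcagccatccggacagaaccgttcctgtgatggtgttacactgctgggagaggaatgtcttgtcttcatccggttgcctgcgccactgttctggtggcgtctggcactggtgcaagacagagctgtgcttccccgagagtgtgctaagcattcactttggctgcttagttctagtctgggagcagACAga
SNORA73B: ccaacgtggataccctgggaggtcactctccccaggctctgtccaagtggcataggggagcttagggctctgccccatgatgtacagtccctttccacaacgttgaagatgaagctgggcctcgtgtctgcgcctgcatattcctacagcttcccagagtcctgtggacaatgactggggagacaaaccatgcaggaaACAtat
In the 2 chimeric RNAs that follow, capitals mark TGATGA near the 5′ end and CTGA near the 3′ end, the letters of boxes C and D.
SCARNA5: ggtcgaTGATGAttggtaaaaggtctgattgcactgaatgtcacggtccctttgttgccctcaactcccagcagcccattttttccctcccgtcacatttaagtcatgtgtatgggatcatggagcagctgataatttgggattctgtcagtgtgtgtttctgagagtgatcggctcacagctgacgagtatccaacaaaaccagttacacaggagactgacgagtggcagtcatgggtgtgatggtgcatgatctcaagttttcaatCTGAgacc
SCARNA6: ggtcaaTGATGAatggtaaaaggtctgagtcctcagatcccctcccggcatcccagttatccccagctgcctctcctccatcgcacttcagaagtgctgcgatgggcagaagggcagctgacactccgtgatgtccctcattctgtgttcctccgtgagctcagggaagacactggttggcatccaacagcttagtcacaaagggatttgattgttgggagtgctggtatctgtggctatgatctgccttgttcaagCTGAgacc

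The letters of the boxes were searched on the RNA's strand in the 67 members with exactly 1 locus. ACA was found within the last 12 bases of 58 members (86.6%) and in the last 12 bases of 8.96% of stretches of the same length directly upstream. It stood exactly 3 bases from the 3′ end in 43 (64.2%) and in none of the upstream stretches. ANANNA, the letters of box H, was found in all 67 and in 82.1% of the upstream stretches, and TGAG, which occurs in the Cajal body box, in 31 (46.3%) and 65.7%, so these short words did not set the members apart from their flanks. TGATGA within the first 16 bases together with CTGA within the last 12 was found in 3 members, SCARNA5, SCARNA7 and SCARNA12 (4.48%), and in 0 upstream stretches. In a global alignment, SCARNA5 and SCARNA6 shared 63.6% of aligned positions.

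Of the 135 members, 13 had no read in any library, 18 had reads but passed no filter on low counts, and 104 were tested in at least 1 comparison. For reads assigned to a symbol, a count of 0 in all 12 libraries allows up to 0.00437 CPM (read counts scaled to library size). This is the value of 3 counts among 686117187 reads. It does not bound the level of an RNA whose reads may have been set aside because they overlap another gene or copy. The annotation held 449 loci for 132 members, with 67 members at 1 locus and 65 at several, up to 30 for SNORA70. A symbol with several loci is 1 sum over copies that can share reads, and SCARNA2, SCARNA10 and SNORA70D had no locus under their symbol. Of the 67 single-locus members, 64 lay inside a host gene on the same strand. Among 19 that lay wholly inside an exon of another gene on that strand, 9 had 0 reads and the median was 3 reads over all libraries. Among the other 48, 2 had 0 reads and the median was 1120.5. SCARNA12, a chimeric RNA inside an exon of PHB2, had 51 reads in all. The sources used here do not say how reads on overlapping genes were counted, and its part in these low counts was not tested.

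The reads were concentrated on a few members. SCARNA10, SCARNA7, SCARNA2 and SNORA73B held 67.6% of all member reads, and the 10 most abundant held 86.8%. SCARNA10, a chimeric RNA, averaged 426 CPM over the 12 libraries, SCARNA7 and SCARNA2, which are box C/D RNAs, averaged 366 and 323 CPM, and SNORA73B, an H/ACA RNA that acts in the cleavage of pre-ribosomal RNA, averaged 282 CPM. SCARNA21, SCARNA5, SCARNA6, SCARNA13, SCARNA9 and SNORA53 followed with 115, 114, 50.4, 43.3, 39.2 and 30.7 CPM. Per kilobase of length, among single-locus members, SNORA73B came first with 1381 ± 1016 CPM (SD, n = 12), before SCARNA7 with 1109 ± 351, SCARNA5 with 415 ± 317 and SCARNA13 with 158 ± 75.2. The means of SNORA73B and SCARNA7 differed by less than the SD of either.

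Library depth ranged from 27576276 to 98287391 reads on genes. The members took 0.117%, 0.177% and 0.265% of them in co-treatment controls 1 to 3 and 0.106%, 0.231% and 0.158% in the co-treated libraries. These groups overlapped. In the pre-treatment experiment the share was 0.0613%, 0.0859% and 0.330% in controls 1 to 3 and 0.321%, 0.287% and 0.281% in the treated libraries. Control replicate 3 thus lay above all treated libraries, while controls 1 and 2 lay below every other library of the series. Exact binomial 95% intervals, which cover counting error only, were 0.0606% to 0.0620% in control 1 and 0.328% to 0.331% in control 3.

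**Figure D1:**
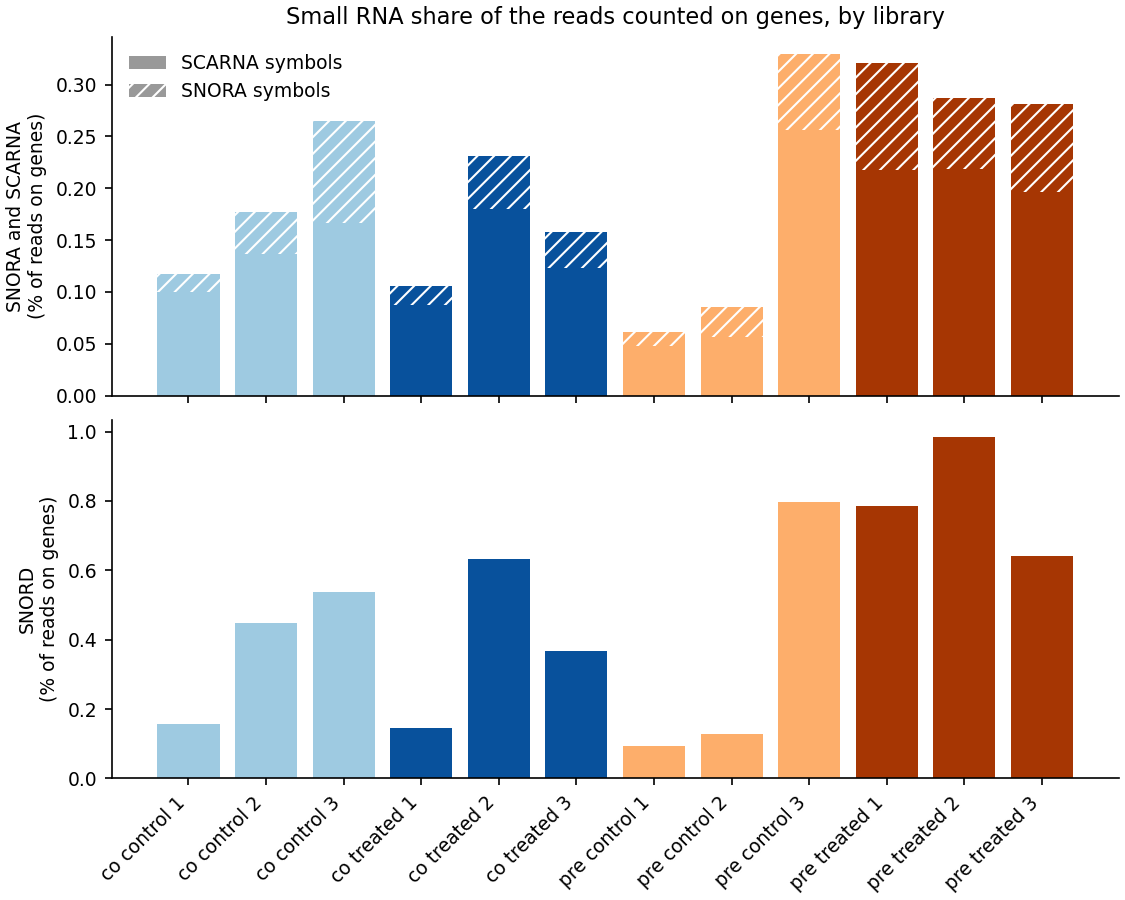
Reads on SNORA and SCARNA symbols (top, stacked bars) and on SNORD symbols (bottom) as a percentage of all reads counted on genes, 1 bar for each of the 12 libraries. Pre-treatment controls 1 and 2 have the lowest bars in both panels, and pre-treatment control 3 stands at the height of the treated libraries.

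Other measures of the libraries moved with this split. All small-RNA symbols together, SNORA, SCARNA and SNORD among them, took 1.60%, 2.92% and 17.6% of gene reads in pre-treatment controls 1 to 3. In the treated libraries they took 15.1%, 15.0% and 13.3%. Box C/D small nucleolar RNAs (SNORD symbols) took 0.0941%, 0.128% and 0.796% of gene reads in pre-treatment controls 1 to 3 and 0.784%, 0.985% and 0.640% in the treated libraries. Reads that fell on no gene, per read on a gene, amounted to 0.800, 0.830 and 0.200 in controls 1 to 3, to 0.343, 0.400 and 0.462 in the treated libraries and to between 0.263 and 0.429 in the co-treatment experiment. Pre-treatment counts and the values of the main members are therefore given over all 6 libraries and without control replicate 3, which leaves 2 controls. Other values are given as stated beside them, and the part of these library measures in the values was not tested. In bulk RNA, fewer cells of a type and less RNA per cell cannot be told apart.

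The labelled cell type was checked on its markers. TUBB3, ENO2, MAP2, MAPT and SV2A, markers of neurons, were expressed in all libraries with a summed level of 1090 to 1582 CPM. Their log2FC values were all negative, from -0.42 to -0.02 in the co-treatment, from -0.75 to -0.15 in the pre-treatment over 6 libraries and from -0.94 to -0.03 without control 3, with none called and a smallest FDR of 0.014 by edgeR for MAPT in the last. Of the sympathoadrenal genes PHOX2A, HAND2, GATA3, ISL1 and DBH were expressed while TH, the first enzyme of catecholamine synthesis, did not exceed 0.263 CPM. Summed over 7 markers of mesenchymal cells, levels were 74.7 to 179.6 CPM in co-treatment controls, 167 to 183 CPM in co-treated cells, 105 to 241 CPM in pre-treatment controls and 115 to 166 CPM in pre-treated cells. VIM, an intermediate filament gene among them, was called higher with a log2FC of 1.16 (FDR = 0.027) in the co-treatment and 2.42 (FDR = 0.044) in the pre-treatment over 6 libraries by edgeR's quasi-likelihood test. COL1A1 and FN1 of the same list had -1.65 and 0.51 in the co-treatment and -0.60 and -0.33 in the pre-treatment over 6 libraries, not called. Without control 3, VIM, CD44 and YAP1 were called higher, with COL1A1 and FN1 at -1.05 and -0.53 and not called, and GATA3 and DBH were called lower. The part of the neuronal, sympathoadrenal and mesenchymal markers in the members' values was not tested. COL1A2 of the mesenchymal list did not exceed 0.250 CPM and was at 0 in 1 library.

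The first comparison asked which members changed when H2O2 was present during differentiation. None of 88 tested members was called (edgeR's quasi-likelihood test over 22089 genes, FDR below 0.05 with an absolute log2FC above 0.6), where 0.598% of all tested genes were. The median log2FC of the members was -0.23, with 25 of 88 above 0, against -0.00096 over all tested genes. Leaving out control replicate 3 turned this median to 0.12. At an unadjusted p below 0.05 there were 6 of the 88 members, where 1800 of 22089 genes were. The 6, all lower in treated cells, were SCARNA9, SCARNA17, SCARNA18, SNORA4, SNORA14A and SNORA49. DESeq2 and edgeR's exact test each called 1 member (1.14%), SCARNA17, where they called 1.39% and 1.41% of all tested genes. With limma-voom 0 members were called, where 0.625% of all tested genes were. Without the filter on low counts, 13 of 119 members (10.9%) were called, all lower, where 443 of 37237 genes (1.19%) were called.

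SCARNA9, a box C/D Cajal body RNA in CEP295, was at 49.8, 41.8 and 59.4 CPM in controls 1 to 3 and at 30.8, 34.9 and 33.7 CPM in co-treated cells. Every treated library lay below every control, by a log2FC of -0.60 ± 0.14 (SE, FDR = 0.12 by edgeR's quasi-likelihood test). SCARNA17, a box C/D RNA as well, was at 36.9, 32.1 and 44.7 CPM in controls and at 27.3, 21.2 and 25.8 CPM in treated cells. The groups did not overlap, and the log2FC was -0.61 ± 0.15 (FDR = 0.15 by edgeR). SCARNA18 was at 12.5, 10.8 and 11.7 CPM in controls and at 9.38, 5.88 and 7.09 CPM in treated cells, again without overlap, with a log2FC of -0.66 ± 0.19 (FDR = 0.23 by edgeR). A copy of SCARNA17 (chr18:47340503-47340646) and a copy of SCARNA18 (chr18:47340731-47340813) lie next to each other in SNHG22, and both symbols have further copies on chromosomes 1 and 22, so their values are not independent.

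**Figure D2:**
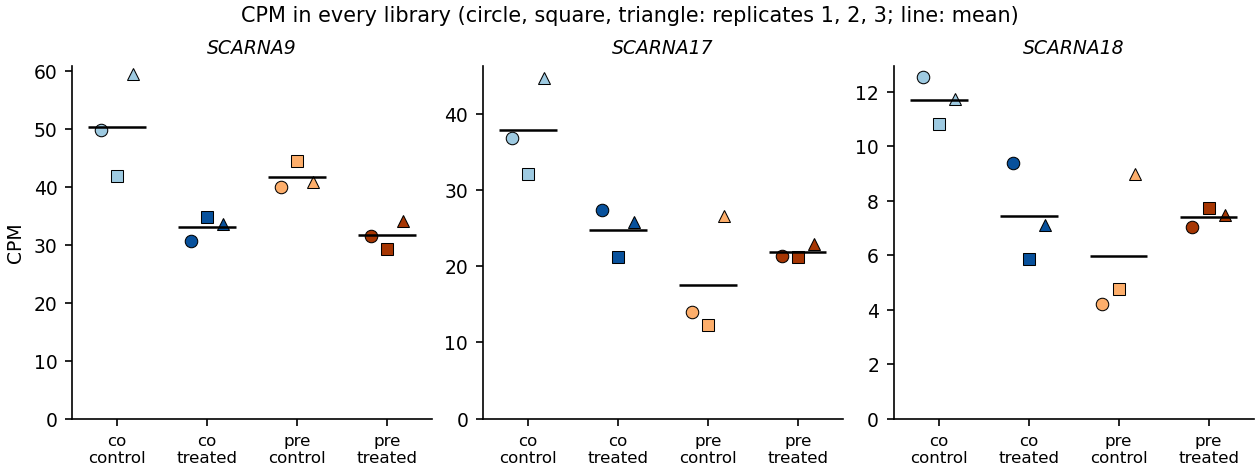
Level in CPM of SCARNA9, SCARNA17 and SCARNA18 in each library, by group, with the axis starting at 0 and a line at the mean of 3 libraries. In the co-treatment experiment all treated libraries lie below all controls for the 3 RNAs, and SCARNA9 shows the same order in the pre-treatment experiment.

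The other 2 members whose co-treated libraries all lay below the controls were SCARNA23 and SNORA4, both under 1 CPM. This made 5 of 88 members, where 7.37% of all tested genes had treated libraries below all controls. SNORA7 alone had treated libraries above all controls, where 6.58% of all tested genes did, with 0.143, 0.128 and 0.0877 CPM in controls and 0.355, 0.241 and 0.194 CPM in treated cells (log2FC 1.07 ± 0.62, FDR = 0.74 by edgeR). SNORA73, SCARNA13 and SNORA5C followed it among the members with a positive log2FC, with 0.86, 0.36 and 0.25 and none called. Members with treated libraries below or above all controls were 5.68% and 1.14% of those tested, less than the shares over all genes. SNORA7 reached the filter on low counts only because of treated libraries, and SCARNA23 and SNORA4 only because of controls. The filter thus favoured their order. In all, 7 higher members reached it only because of treated libraries and 8 lower ones only because of controls, with none called.

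The more abundant members spread widely between libraries of 1 group. SCARNA10 was at 190, 283 and 456 CPM in co-treatment controls and at 106, 492 and 246 CPM in treated cells, and SNORA73B at 61.8, 211 and 670 CPM in controls and 76.6, 280 and 162 CPM in treated cells. Both groups overlapped for each. Control replicate 3 had the highest control level for 66 of the 88 members, control replicate 1 the lowest for 68, and treated replicate 1 the lowest treated level for 67. SCARNA2 was among the steadier members, at 286, 347 and 325 CPM in controls and 199, 328 and 286 CPM in treated cells (log2FC -0.23 ± 0.17, FDR = 0.83 by edgeR).

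The second comparison asked which members differed after H2O2 before differentiation. Over all 6 libraries none of 101 tested members was called by edgeR's quasi-likelihood test (FDR below 0.05, absolute log2FC above 1), where 0.0242% of all tested genes were. The median log2FC was 0.55, 73 members were above 0, and 2 had an unadjusted p below 0.05, where 2776 of 24743 genes did. DESeq2, limma-voom and edgeR's exact test called 0 as well, where they called 2.02%, 0% and 0.970% of all tested genes. Treated libraries lay above all 3 controls for 10 members, SCARNA1, SCARNA15, SNORA33, SNORA40, SNORA50, SNORA53, SNORA60, SNORA74A, SNORA74B and SNORA81, where 7.97% of all tested genes did so. They lay below all controls for SCARNA9, SNORA36B and SNORA72, where 8.47% of all tested genes did. SNORA36B reached the filter on low counts only because of controls, as did 11 lower members in all, and 5 higher ones reached it only because of treated libraries.

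SCARNA9 was the member with the smallest p over 6 libraries. Its level was 40.1, 44.4 and 40.8 CPM in pre-treatment controls and 31.5, 29.4 and 34.1 CPM in treated cells, a log2FC of -0.37 ± 0.15 (FDR = 0.42 by edgeR). Its 3 controls lay close together, and its treated libraries lay below all controls in both experiments, which held for 1 of the 88 members tested in both and for 208 of 21930 genes (0.948%). SNORA33 was at 0.526, 0.263 and 0.762 CPM in controls and 1.23, 0.793 and 1.26 CPM in treated cells, a log2FC of 1.09 ± 0.47 (FDR = 0.44 by edgeR). SNORA13, SCARNA4 and SNORA2A had log2FC values of 1.11, 1.04 and 1.42, and SNORA2, SNORA72 and SCARNA16 of -1.41, -0.85 and -1.14, none of them called.

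Control replicate 3 stood out by the members' own share of reads, among other measures. Values without it therefore describe the remaining libraries and are no independent evidence that the members changed. Without control replicate 3, 40 of 104 members (38.5%) were called, where 11.2% of all tested genes were. Of these 39 were higher in treated cells, where 2.98% of all tested genes were called higher, and 1, SNORA2, was lower. The median log2FC was 1.07, with 78 members above 0. Of the 104, 5 members, SCARNA8, SCARNA12, SCARNA14, SNORA14A and SNORA70D, were higher in treated cells and reached the filter on low counts only because of treated libraries, and 8 were lower and reached it only because of controls. None of these 13 was called, and the other 91 held all 40 calls with a median log2FC of 1.23. SNORD symbols gave 17 called higher and 2 lower of 94, with a median of 0.65. Over 6 libraries their median was 0.58, near the 0.55 of the members, with 67 of 82 above 0 and 0 called. For all 39 members called higher, control replicate 3 lay nearer to the mean of the treated libraries than to that of controls 1 and 2 on the log2(CPM + 0.5) scale. It lay within the treated range for 22 of them, above it for 11 and below it for 6.

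SNORA53, an H/ACA RNA, gave the largest difference. It was at 4.12, 3.61 and 54.0 CPM in controls 1 to 3 and at 93.3, 70.1 and 74.5 CPM in treated cells. Treated levels lay above all controls, but control 3 lay much nearer to them than to the other controls, and the log2FC was 4.43 ± 0.19 (FDR = 7.6e-05 by edgeR, 21.5-fold) without control 3 and 1.94 ± 0.94 (FDR = 0.49) with it. SNORA74A was at 1.16, 1.45 and 18.6 CPM in controls and 29.3, 25.7 and 24.1 CPM in treated cells, a log2FC of 4.41 ± 0.21 (FDR = 0.0001 by edgeR) without control 3 and 1.89 ± 0.94 (FDR = 0.49) with it. SNORA74B, its relative of the same family on the same chromosome, was at 0.998, 1.42 and 11.5 CPM in controls and 15.3, 13.4 and 12.1 CPM in treated cells, with a log2FC of 3.57 ± 0.25 (FDR = 0.00056 by edgeR) without control 3 and 1.54 ± 0.81 (FDR = 0.52) with it. The order of libraries was the same in both, with control 3 between the other controls and the treated cells.

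The chimeric Cajal body RNAs had the highest class median, 1.03 over 6 libraries with 0 of 3 called. SCARNA10 was at 53.3, 60.3 and 1062 CPM in controls and 733, 764 and 672 CPM in treated cells, so that control 3 exceeded every treated library, and its log2FC was 3.74 ± 0.14 (FDR = 5.9e-05 by edgeR, 13.4-fold) without control 3 and 0.88 ± 1.01 (FDR = 0.76) with it. SCARNA5 was at 14.2, 19.8 and 243 CPM in controls and 232, 198 and 201 CPM in treated cells, with a log2FC of 3.70 ± 0.19 (FDR = 0.00013 by edgeR) without control 3 and 1.19 ± 0.94 (FDR = 0.66) with it. SCARNA6, which lies in the same host gene, was at 7.29, 12.8 and 93.9 CPM in controls and 87.8, 72.9 and 73.1 CPM in treated cells, with a log2FC of 3.03 ± 0.25 (FDR = 0.00089 by edgeR) without control 3 and 1.03 ± 0.82 (FDR = 0.66) with it. In the 3 chimeras the treated libraries overlapped with the controls only through control 3. Without control 3, 3 of 4 tested members of the class were called higher with a median log2FC of 3.37. The fourth was SCARNA12, which was under 0.2 CPM in every library and reached the filter only because of treated libraries, and the median of the other 3 was 3.70.

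**Figure D3:**
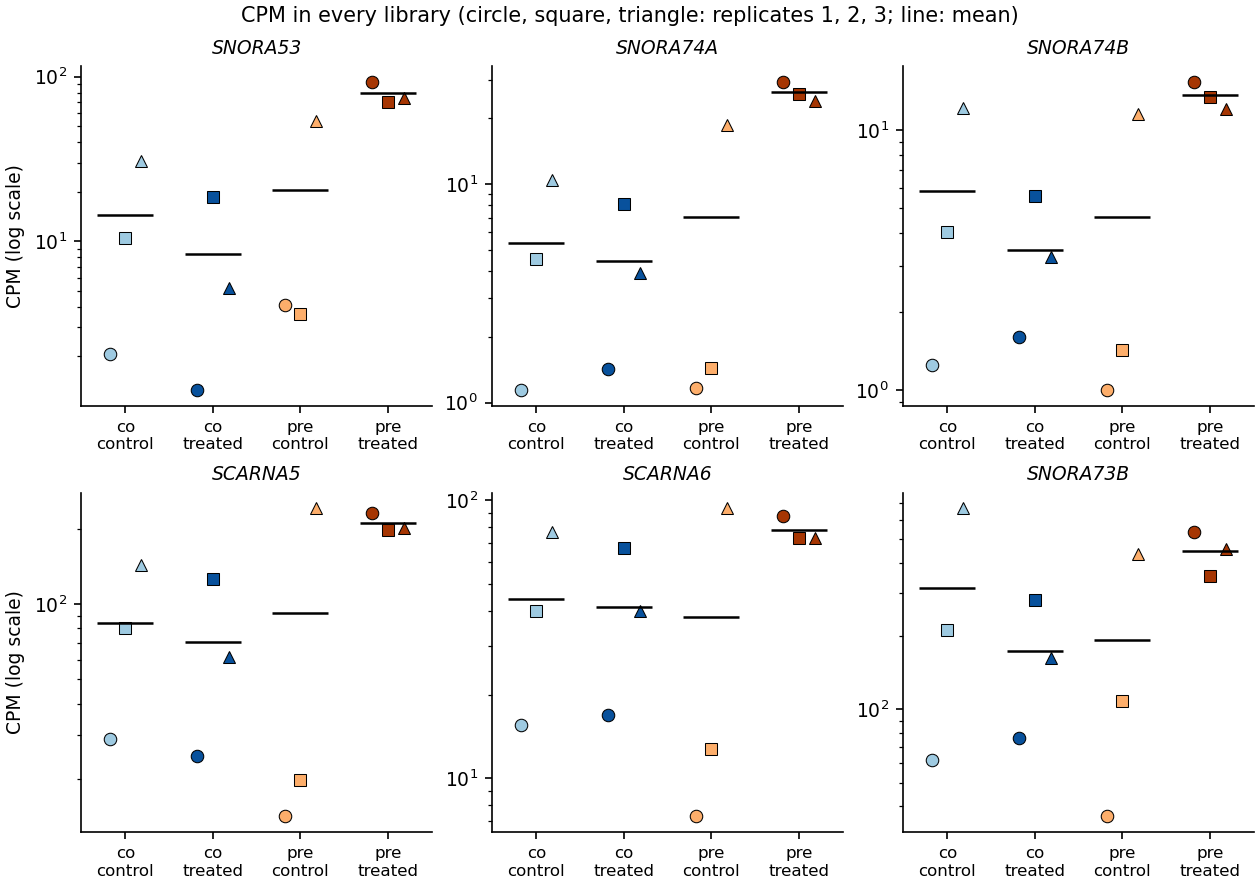
CPM on a log axis of SNORA53, SNORA74A, SNORA74B, SCARNA5, SCARNA6 and SNORA73B in each library, by group, with a line at the group mean. Pre-treatment controls 1 and 2 lie far below control 3, which lies close to the treated libraries, and the co-treatment groups overlap.

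The other classes had lower medians. Over 6 libraries these were 0.76 for H/ACA Cajal body RNAs, 0.40 for box C/D ones, 0.37 for SCARNA symbols without an assigned type and 0.51 for SNORA symbols, with 0 called in each. Without control 3, H/ACA Cajal body RNAs gave 4 of 11 called higher with a median log2FC of 1.60, box C/D Cajal body RNAs 2 of 4 with 1.03, SCARNA symbols without a type 1 of 4 with 0.79, and SNORA symbols 29 of 81 with 0.93. When members that reached the filter only because of treated libraries were left out, H/ACA Cajal body RNAs gave 4 of 9 with 1.44. SNORA symbols then gave 29 of 79 with 0.93. Among the C/D members, SCARNA2 was at 37.4, 118 and 694 CPM in controls and 397, 502 and 356 CPM in treated cells (log2FC 2.50 ± 0.43 without control 3, FDR = 0.0057 by edgeR, and 0.56 ± 0.85 with it, FDR = 0.82), while SCARNA7 was at 204, 156 and 526 CPM in controls and 466, 395 and 361 CPM in treated cells (log2FC 1.25 ± 0.17 without control 3, FDR = 0.0025 by edgeR, and 0.48 ± 0.43 with it, FDR = 0.70). Control 3 exceeded all treated libraries for both. SNORA73B was at 36.4, 108 and 433 CPM in controls and 536, 351 and 453 CPM in treated cells (log2FC 2.70 ± 0.43 without control 3, FDR = 0.0043 by edgeR, and 1.22 ± 0.74 with it, FDR = 0.57). The treated cells overlapped with control 3 and not with controls 1 and 2. SCARNA21 and SCARNA13 were called higher too without control 3, with 3.04-fold and 4.29-fold differences, and had log2FC values of 0.61 and 0.56 over 6 libraries, not called.

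The counts were also taken by the number of loci. Over 6 libraries the median log2FC was 0.74 for 45 tested single-locus members and 0.33 for 54 with several loci, with 0 called in either. Without control 3, of 47 tested single-locus members 22 were called higher with a median log2FC of 1.48, and of 54 with several loci 15 with a median of 0.40. When members that reached the filter only because of treated libraries were left out, 22 of 43 single-locus members were called higher with a median of 1.44. Among single-locus members of at least 180 bases 8 of 11 were called higher (median 2.70) and among shorter ones 14 of 36 (median 1.44). These last counts include such members, SCARNA12 among the longer ones and SCARNA8, SCARNA14 and SNORA14A among the shorter ones. Across the 47 members the rank correlation of length with log2FC was 0.227, a weak relation over RNAs that share the same libraries, and the length of 180 bases was chosen after the values were seen.

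SNORA2, a symbol with 3 loci, was the 1 member called lower. It was at 1.45, 1.27 and 0.305 CPM in controls and 0.342, 0.176 and 0.576 CPM in treated cells, so that control 3 again fell among the treated libraries (log2FC -1.81 ± 0.46 without control 3, FDR = 0.023 by edgeR). It was not called when control 1, control 2 or treated library 1 was left out as well, with FDR values of 0.10, 0.095 and 0.070 by edgeR. The next members by p in this direction, SNORA72, SCARNA16 and SNORA48, had log2FC values of -1.07, -1.66 and -0.98 with FDR values of 0.052, 0.058 and 0.060 by edgeR. SCARNA9 had -0.34 ± 0.13 (FDR = 0.081 by edgeR).

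**Figure D4:**
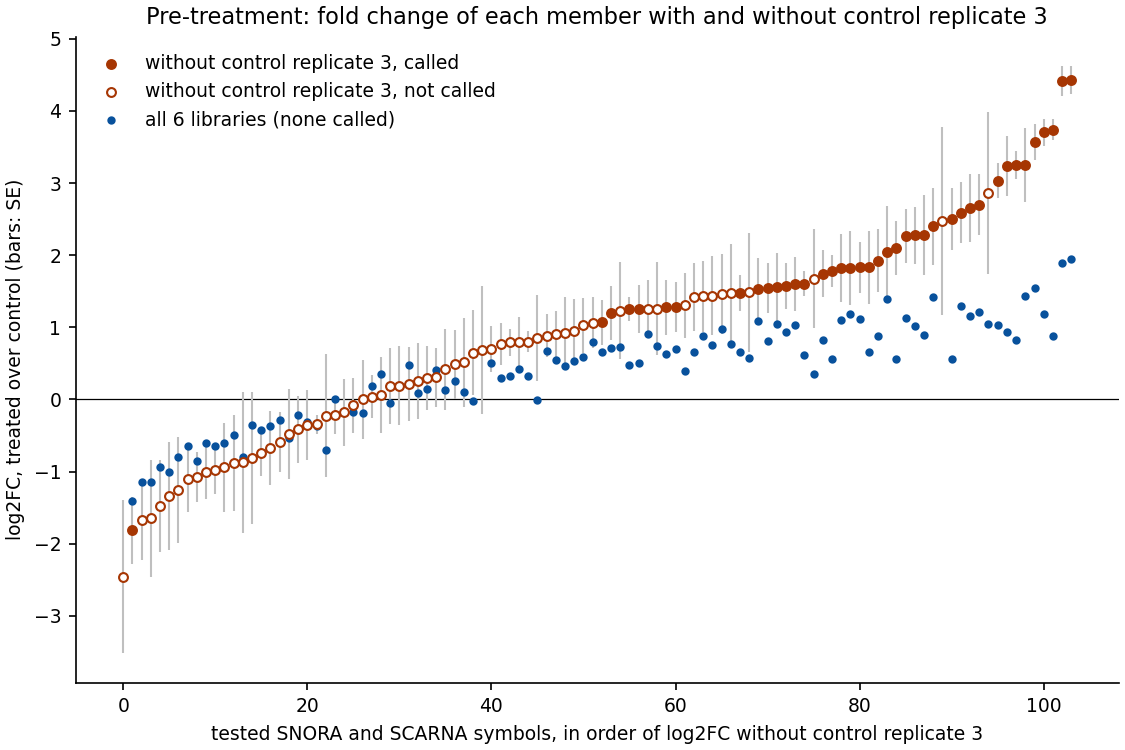
log2FC of treated over control cells in the pre-treatment experiment for the 104 tested members, ranked without control replicate 3 (red points with SE bars, filled where called) beside the value over all 6 libraries (blue). Filled red points number 40, and the blue points lie closer to 0 for nearly all of them, with none called.

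Host genes were compared with the RNAs they hold. Over 6 libraries 39 tested members in 40 pairs had a median log2FC of 0.76 and their hosts 0.20, with no member and no host called, and the member lay above its hosts for 37 of the 39. Without control replicate 3, 41 tested members in 42 pairs with 36 host genes had a median log2FC of 1.57, and their hosts had 0.50. The member lay above its host for 38 of the 41, and for 34 of 37 when the members that reached the filter only because of treated libraries were left out. Of the 20 hosts of members called higher, 3 were called higher and 1 lower. SLC25A3, the mitochondrial phosphate carrier that holds SNORA53, had a log2FC of 0.46, MATR3, a nuclear matrix protein gene that holds SNORA74A, had 0.61 (SNHG4, which holds it too, was not analysed here), ATP6V0E1, a subunit gene of the vacuolar proton pump that holds SNORA74B, had 0.72, and ATG16L1, an autophagy gene that holds SCARNA5, had 0.65. Values near those of the member were found for SNHG3, the noncoding host of SNORA73B, with 2.50, and RPL12, a ribosomal protein gene, had 1.35 against 1.82 for its SNORA65. EP400, a chromatin remodeller gene, had -2.15 against 1.83 for its SNORA49, and ZBED3 had -2.06 against 1.26 for its SNORA47, which was not called. SNORA73B also lies within RCC1, which had 0.59. Where host and member overlap, a read may have gone to either of them or been set aside, since the counting of such reads is not stated.

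**Figure D5:**
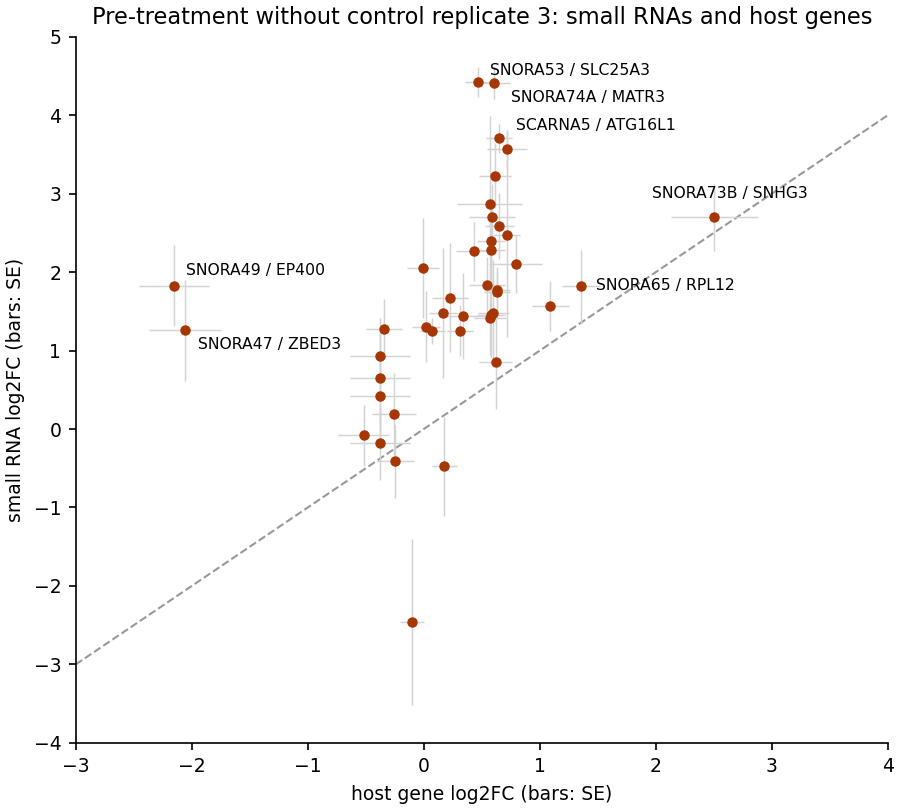
log2FC of small RNAs against the log2FC of their host genes in the pre-treatment experiment without control replicate 3, with SE bars and a dashed line of equality, 1 point for each of 42 pairs. Most points lie above the line, with hosts between -1 and 1, and SNORA73B with SNHG3 lies near it.

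KANSL2, a subunit gene of a histone acetyltransferase complex, and SNHG17 hold several members, none of them called over 6 libraries. Without control 3, KANSL2 had a log2FC of 0.58, and its SNORA2A, SNORA34 and SNORA2B had 2.40, 2.28 and 1.46, of which the first 2 were called. SNHG17 had -0.38, and its SNORA71A, SNORA71B, SNORA71C and SNORA71D had 0.93, 0.42, -0.18 and 0.65, none called. SNORA71A, SNORA71C and SNORA71D are near copies, with 82.4% to 85.8% of aligned positions identical, so reads may be split between them. TBRG4 had 0.63, and its SNORA5A and SNORA5C, with 68.3% identity, were called with 1.74 and 1.78.

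The protein genes of these particles were described from fixed lists. Of the 4 core H/ACA proteins, DKC1, the pseudouridine synthase, had a log2FC of 0.02 in the co-treatment and 0.67 in the pre-treatment without control 3, and NOP10, NHP2 and GAR1 had 0.20, -0.09 and -0.50 in the co-treatment and 0.65, 0.97 and -0.15 in the pre-treatment. None was called in the co-treatment, in the pre-treatment over 6 libraries or without control 3, and the same held for 6 assembly factors (NAF1, SHQ1, RUVBL1, RUVBL2, PIH1D1 and NUFIP1), 4 genes of 3′ end trimming (PARN, PAPD5, TOE1 and EXOSC10) and 6 genes of Cajal bodies and nucleolar chaperones (COIL, WRAP53, SMN1, NOLC1, TCOF1 and LARP7). Several passed the FDR without reaching the fold threshold, such as COIL, the scaffold of Cajal bodies, with 0.80 without control 3 (FDR = 0.010 by edgeR) and 0.40 over 6 libraries. TERC, the telomerase RNA, which ends in an H/ACA domain and is no member by its symbol, was at 14.2, 53.0 and 133 CPM in pre-treatment controls and 64.0, 101 and 78.8 CPM in treated cells (log2FC 1.34 without control 3, FDR = 0.061 by edgeR, and 0.29 with it). As for SCARNA2, control 3 lay above all treated cells. TERT, the telomerase protein, had 0.23 without control 3 and 0.39 with it.

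The last comparison tested whether the effect of H2O2 differed between the experiments, with an interaction term. Over 12 libraries none of 98 members was called by edgeR's quasi-likelihood test at an FDR below 0.05, where 0.0287% of all tested genes were. At an unadjusted p below 0.05 there were 13 members, where 2183 of 24407 genes were. The median difference, pre minus co, was 0.79 on the log2 scale. DESeq2 and limma-voom called 0, where they called 0.434% and 0.00819% of all tested genes. Without the filter edgeR called 4 of 122 members (3.28%), where 0.639% of all tested genes were called. The members with the smallest p were SCARNA17, SCARNA18, SNORA49 and SNORA37 in one direction, with differences of 0.92, 0.96, 2.53 and 2.65, and SNORA36B, SNORA7, SNORA2 and SNORA73 in the other, with -2.22, -2.12, -1.64 and -1.27. Without pre-treatment control 3, 20 of 99 members were called, all with a more positive log2FC in the pre-treatment, where 8.02% of all tested genes were called and 3.32% in this direction. NHP2, COIL and TERC were called in this test as well, with differences of 1.01, 0.76 and 1.78.

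SCARNA17 had the smallest p of the members in this test. Its pre-treatment levels were 14.0, 12.3 and 26.5 CPM in controls and 21.3, 21.2 and 22.9 CPM in treated cells, so that the treated libraries lay above controls 1 and 2 and below control 3, whereas all co-treated libraries lay below their controls. The difference of log2FC was 1.36 ± 0.22 (FDR = 0.0077 by edgeR) without control 3. SCARNA18 gave 1.39 ± 0.27 (FDR = 0.013 by edgeR), SCARNA10 3.82 ± 0.63 (FDR = 0.0078) and SCARNA2 2.68 ± 0.47 (FDR = 0.0088). SNORA53 and SNORA74A gave the largest differences among the called members, 5.11 ± 1.23 (FDR = 0.025 by edgeR) and 4.56 ± 0.94 (FDR = 0.016). Over 12 libraries SCARNA10, SCARNA2, SNORA53 and SNORA74A had differences of 1.02, 0.80, 2.70 and 2.11, none called. SCARNA9 gave 0.20 ± 0.20 (FDR = 0.54 by edgeR) for the difference between its values of -0.60 and -0.37 or, without control 3, -0.34. In the negative direction SNORA2, SNORA7, SNORA62 and SNORA48 gave -2.08, -2.48, -1.46 and -1.66, none called.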

How the data were processed

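Total RNA depleted of ribosomal RNA from 12 libraries of SH-SY5Y cells was sequenced as stranded paired-end libraries. According to the study's methods and the submitters' processing notes, reads were checked with FastQC 0.11.8, trimmed using cutadapt 2.10, aligned by HISAT2 2.1.0 to the hg19 genome and counted per gene symbol with HTSeq 0.7.2. The authors deposited raw read counts per library, unnormalized and unfiltered. The strand setting, overlap mode and annotation version are not given in the sources used here. Short RNAs below the size kept in library preparation, and reads on copies or overlapping genes, may be undercounted. Tables of the authors' own differential expression (log2 fold change, log CPM, p-value and FDR) were not used.

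Counts were analysed with edgeR 4.0.16 (quasi-likelihood test, TMM factors) in R 4.3.3, with limma 3.58.1 (voom) and DESeq2 1.42.0 as alternatives. Genes entered a comparison at the CPM of 5 counts in the smallest library (0.181 for the co-treatment and the interaction, 0.120 for the pre-treatment) in at least the number of libraries of the smaller group. All genes were fitted, p-values were adjusted over all of them by the Benjamini-Hochberg method, and SE values were derived from the F statistic. CPM in the text are TMM-scaled over the 12 libraries, and log2FC is treated over control. Groups followed the labels, with 3 libraries each. In simulated counts of each comparison, 200 genes were changed by a log2FC of 2. Called were 99.0% in the co-treatment (21951 genes), 86.0% in the pre-treatment over 6 libraries (24655 genes) and 72.5% in the interaction over 12 libraries (24218 genes). The changed genes were drawn above a minimum mean count, and noise was drawn for each gene separately. No shift of many genes in 1 library was simulated, and 31 members averaged under 10 reads a library. The rates therefore do not give the power for the members.

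Loci, hosts and exons came from GENCODE v44 lifted to GRCh37, which is not the annotation of the counts, and classes of SCARNA from general knowledge. Named members were the 10 with the highest mean CPM, the 4 with the smallest p in each direction and comparison, the chimeric and main box C/D Cajal body RNAs, SNORA73B, the listed protein genes, and hosts. Members outside this rule that are named for non-overlapping groups, large fold changes or a shared host were chosen after their values were seen. The members and lists were chosen with earlier results of these data known. Alternatives were other scalings, filters and tests, a replicate block and each library left out. Those that combine the omission of pre-treatment control replicate 3 with another setting were chosen after seeing the data. Between replicates of a group the chi-square per degree of freedom was 24.8 to 545, so none was a copy. 1 small RNA sequence and 1 marker gene are not reported here.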

Additional observations from a re-analysis of the deposited data

Results flagged for a closer look

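Without pre-treatment control replicate 3, the effect of H2O2 differed between the 2 experiments for 20 members by the interaction test of edgeR (FDR below 0.05), and over all 12 libraries for 0. The 4 with the smallest p in the positive direction were SCARNA17, SCARNA10, SCARNA2 and SCARNA18, with differences of log2FC, pre-treatment minus co-treatment, of 1.36, 3.82, 2.68 and 1.39. These 4 were singled out because the difference itself passed the test. The levels of all 4 in control replicate 3 exceeded every treated library of that experiment.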

How the results depend on the processing

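In the co-treatment, the count of 0 called members became 1 with DESeq2, 1 with the exact test and 13 without a filter. Of all tested genes these settings called 1.39%, 1.41% and 1.19%. In the interaction, the count of 0 became 4 without a filter, where 0.639% of all tested genes were called. In the pre-treatment, the count of 0 became 40 without control replicate 3. Combined with that omission, it was 41 with RLE factors, 37 with upper-quartile factors, 37 with library size only, 41 when scaled on genes outside the small-RNA classes, 49 without a filter, 43 with DESeq2, 51 with the exact test and 38 with limma-voom. Over these settings 9.10% (no filter) to 14.5% (exact test) of all tested genes were called, and 35.6% to 49.0% of the members. Leaving out a treated library as well gave 26 to 37, where 6.87% to 13.7% of all genes were called. Leaving out control 1 or 2 as well gave 22 and 34, where 8.33% and 3.65% of all genes were called. That leaves 1 control, which is assumed to vary like the treated libraries. The interaction gave 20 without control replicate 3, and then 20 with RLE factors, 16 with upper-quartile factors, 16 with library size only, 20 when scaled outside the small-RNA classes, 36 with DESeq2 and 16 with limma-voom, where 7.70% to 13.6% of all genes were called.

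The median log2FC in the pre-treatment moved from 0.55 to 1.07 without control replicate 3, and then to 1.05 (RLE), 0.95 (upper quartile), 1.04 (scaled outside the small-RNA classes) and 0.91 (no filter), with 0.83 to 1.41 after leaving out a further library, both ends with 1 control left. In the interaction it moved from 0.79 to 1.36 without control replicate 3, and then to 1.35 (RLE), 1.26 (upper quartile) and 1.34 (scaled outside the small-RNA classes).

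Leaving out 1 library at a time gave 0 to 0, 0 to 40 and 0 to 20 called members in the co-treatment, pre-treatment and interaction, and medians of -0.54 to 0.12, 0.27 to 1.07 and 0.39 to 1.36. The mean share of reads ranged over 0.147% to 0.221%, 0.132% to 0.194%, 0.0736% to 0.208% and 0.284% to 0.304% in co-treatment controls, co-treated, pre-treatment controls and pre-treated libraries. Without SCARNA symbols the share was 0.0521% in co-treatment controls, 0.0346% in co-treated cells, 0.0385% in pre-treatment controls and 0.0853% in pre-treated cells. Control 3, with 0.0730%, lay within the range of the treated libraries. In pre-treated cells the share was 0.224% without the most abundant member and 0.347% of reads outside the small-RNA classes.

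Of 44 log2FC values of named members, 4 changed sign under some scaling, filter, replicate block or omission of libraries, all in the co-treatment and none called. Only these settings were checked for sign, and DESeq2, limma-voom and edgeR's exact test were not. Without co-treatment control replicate 3, SCARNA10, SCARNA5, SCARNA6 and SNORA73B had 0.25, 0.38, 0.59 and 0.35, and their ranges over single omissions began at -0.82, -0.96, -0.62 and -1.40. Without treated replicate 1 the first 3 had 0.25, 0.16 and 0.29. The cause was not tested.

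Residuals of libraries with the same replicate number had correlations of -0.0674, -0.0715 and -0.0652 in the co-treatment. In the pre-treatment these were -0.230, 0.0300 and -0.280 over 6 libraries and 0.0931 and 0.00525 over 5. In the co-treatment, replicate 1 was the lowest control for 68 of 88 members and the lowest treated library for 67. In the pre-treatment, replicate 1 had the lowest member share of the controls (0.0613%) and the highest of the treated libraries (0.321%). These values do not settle whether the numbers pair the libraries. With the replicate block, 0 members were called in each comparison and the medians were -0.25, 0.68 and 0.90. Members under about 0.1 CPM lie at the limit that 0 counts allow in the shallowest library (0.109 CPM).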
